A study of Mus musculus with 6 samples.

Results

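The transcripts described here encode 10 proteins that hold the contractile apparatus of a smooth muscle cell (SMC) to its cytoskeleton and membrane: the filament proteins Des, Vim and Synm, the adhesion plaque proteins Flna, Vcl and Tln1, and the actin-binding or dense body proteins Actn1, Lmod1, Synpo2 and Ldb3. They were chosen by name for this role, with earlier results of these data known. Each was found once by its Ensembl identifier among the 52636 genes of the count table. The libraries came from whole thoracic aortas of male mice aged 12 weeks, 4 from C57BL/6J mice (WT) and 2 from Tgfbr1/2iSMCKO mice (KO), which are also listed as C57BL/6J. KO mice carried floxed alleles of Tgfbr1 and Tgfbr2, the receptors for TGF-β, together with Myh11-CreERT2 and the mT/mG reporter, and had received 5 daily injections of 2 mg tamoxifen when 11 weeks old. WT mice had none of these alleles and no tamoxifen, so receptor deletion, Cre, reporter and tamoxifen cannot be told apart in this comparison. Cre was driven by the promoter of Myh11, an SMC gene, from a transgene on the Y chromosome, and the aortic wall also holds endothelial cells, fibroblasts and other cells without it.

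In SMCs, actin filaments are anchored inside the cell at dense bodies, where alpha-actinin crosslinks them much as it does at the Z-line of striated muscle, and at the membrane in dense plaques, where talin and vinculin join them to integrins. Intermediate filaments of desmin and vimentin link the dense bodies to each other and to the plaques. TGF-β is known to raise transcription of many cytoskeletal and contractile genes in cultured SMCs and fibroblasts.

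Total counts ran from 19650983 to 28860598 per library, and the lowest count of any of the 10 genes in a library was 1538. The targeted genes did not separate the groups. Normalised counts (counts divided by the library's size factor) of Tgfbr1 were 3858 to 5420.2 in WT and 5780.4 and 4568 in KO (log2 fold change 0.20 ± 0.20 SE, DESeq2 adjusted p = 0.630), and those of Tgfbr2 were 5327 to 7042 in WT and 5784 and 5937 in KO (-0.09 ± 0.18 SE, adjusted p = 0.838). Counts over whole genes cannot show the loss of single exons, so these values do not check the KO label, and the match of table columns to libraries rests on their codes. Mitochondrial genes took 11.7% of counts in KO-2 and 2.62% to 4.44% in the other libraries. The 10 smooth muscle markers summed to 0.954 times the WT mean in KO-1 and 1.08 times in KO-2, and with DESeq2 0 of 10 passed at an adjusted p-value of 0.05 (5 at an unadjusted one, 0 with edgeR). That sum joins opposite moves, with KO outside the WT range for 5 of 10, beside 34.3% of all genes. Tagln, Cnn1 and Smtn lay below (log2 fold changes -0.41, -0.38 and -0.30) and Myh11 and Actg2 above (0.36 and 0.26).

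The 10 transcripts spanned a wide range of abundance in the WT aorta. Levels of different genes were set side by side in TPM, the counts divided by exon length and scaled to the same total in each library. Flna, the actin crosslinker filamin A, led with 3538 ± 163 (SD, n = 4) and ranked 23 among all genes, and Vim, the intermediate filament protein vimentin, followed with 3301 ± 387. These 2 did not differ beyond their spread, since their WT ranges overlapped. The actin filament nucleator Lmod1 (1434 ± 162) and alpha-actinin-1 (Actn1, 1250.0 ± 116) formed the next pair, again with overlapping ranges. Vcl (344 ± 38.0), Tln1 (319 ± 20.9) and Synpo2 (295 ± 41.7) lay at similar levels, each overlapping the next. Desmin, the intermediate filament protein typical of muscle, stood far lower at 101 ± 16.5, level with the Z-line protein gene Ldb3 at 99.2 ± 12.8, and Synm, whose product synemin copolymerises with desmin or vimentin, was lowest at 35.3 ± 5.01. Per length, Des stood to Vim as 0.0307 ± 0.00451 in WT.

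**Figure D1:**
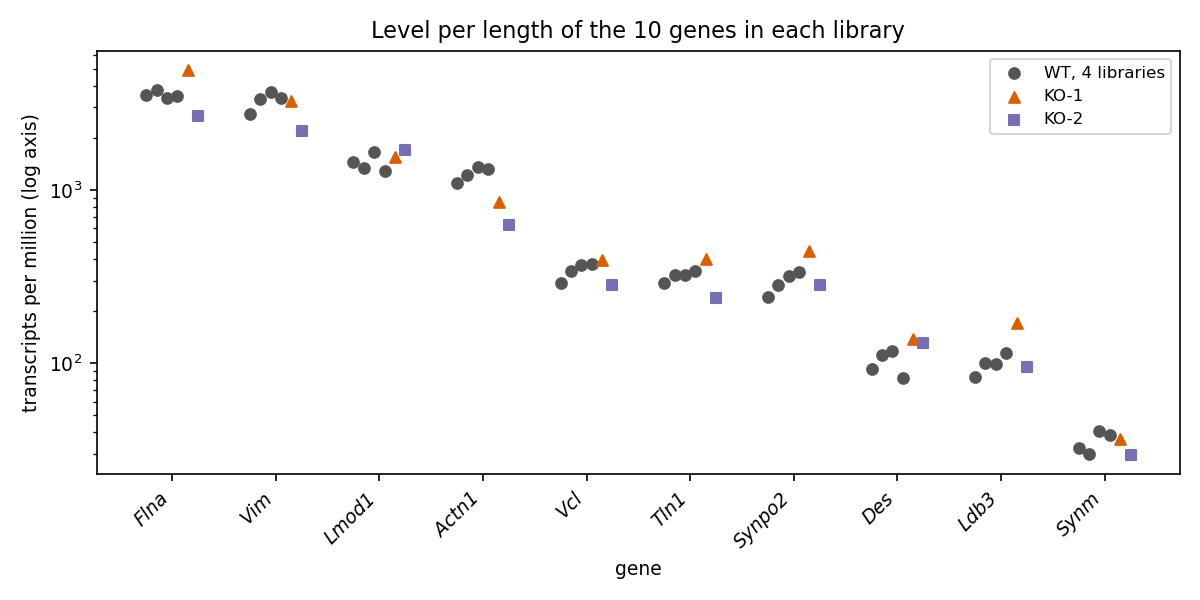
Level per length of the 10 genes in each library, in TPM on a log axis, with 4 WT libraries as circles, KO-1 as a triangle and KO-2 as a square. Flna and Vim sit at the top near 3538 and 3301 in WT and Synm at the bottom near 35.3, and for Actn1 both KO libraries (848 and 629) lie below all WT libraries. TPM depends on each library's total, and in normalised counts Actn1 was at 28389.8 in KO-1 and 28039.7 in KO-2.

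To ask whether these transcripts changed after deletion of the receptors in SMCs, KO was compared with WT over all genes. Actn1 fell in KO by 42.4%, and it was the only member of the 10 to pass the test. Filamin A, vinculin, talin, synemin and leiomodin-1 showed no difference that this design could detect, with log2 fold changes between -0.12 and 0.18. Vim was lower (-0.32 on the log2 scale) and Des (0.40), Ldb3 (0.36) and Synpo2 (0.25) higher on average, without passing the test. A count of 1 in 10 is close to the background, since 10.4% of the 17070 genes tested passed at an adjusted p-value of 0.05, with 4.69% lower and 5.71% higher. None of the 10 also exceeded 2-fold, beside 5.64% of all genes, and 2 had an unadjusted p-value under 0.05 (Actn1 and Vim). Under edgeR 1 of 10 passed, again Actn1, and when KO-2 was left out Ldb3 passed beside Actn1. The KO libraries lay outside the WT range in the same direction for 4 of 10 (Actn1 and Vim below, Des and Synpo2 above), beside 34.3% of all genes. That count was 7 without KO-1 (beside 65.1% of all genes) and 7 without KO-2 (58.9%), where a single KO library is set against the WT range, and 2 when total counts set the scale (32.7%). The median log2 fold change was -0.01 over the 10 genes and 0.01 over all genes tested. For each of the 9 genes that did not pass, the 95% interval of the fold change lay within 2-fold in either direction, from -0.63 at the lowest to 0.81 at the highest. In RNA of whole tissue, fewer cells of a type and less RNA per cell cannot be told apart.

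**Figure D2:**
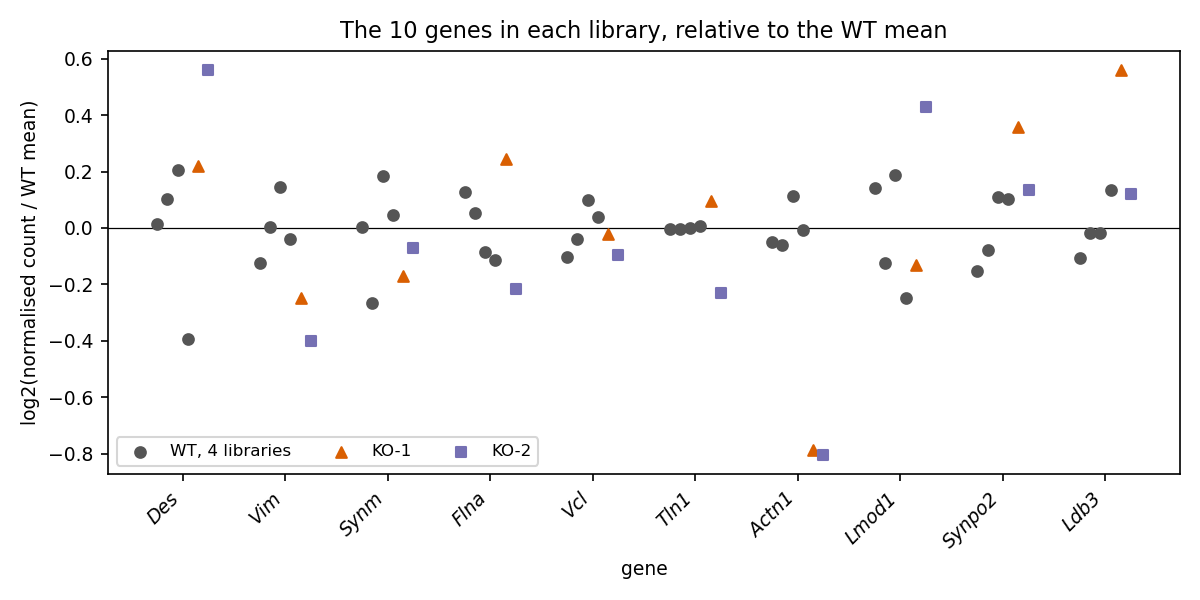
Normalised count of each of the 10 genes in each library, as log2 of its ratio to the WT mean, with 4 WT libraries as circles, KO-1 as a triangle and KO-2 as a square. For Actn1 both KO libraries lie together near -0.79 and -0.80, apart from all WT libraries, whereas for Flna, Tln1 and Lmod1 the KO libraries fall on opposite sides of the WT mean.

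Actn1 (ENSMUSG00000015143, chr12:80167547-80260371, minus strand, GRCm38) encodes the non-muscle alpha-actinin that crosslinks actin at dense bodies and plaques. Its normalised counts were 47252, 46968, 52951 and 48711 in WT and 28389.8 and 28039.7 in KO. The groups did not overlap, and both KO libraries agreed to within 1.01-fold. The fold change on the log2 scale was -0.80 ± 0.14 SE (95% interval -1.08 to -0.51, DESeq2 adjusted p = 2.53e-06), from 48970.4 ± 2762 (SD, n = 4) to 28215 ± 248 (SD, n = 2). This interval lay below those of the other genes except that of Vim, which it overlapped. The adjusted p-value passed in 14 of 15 alternative analyses and was 0.0127 with edgeR and 0.0756 when the replicate number was added as a block. The antisense genes Gm47766 and Gm47767 share 363 and 88 bases of exon with Actn1 on the opposite strand. Reads of such pairs cannot be told apart when the counting is not known to use strand. Gm47766 was listed at 102 to 128 normalised counts in WT and 51.6 and 136 in KO, and Gm47767 at 19.97 to 42.8 in WT and 18.2 and 14.8 in KO.

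The sequence just upstream of Actn1 is shown with those of Vcl and Ldb3, the only 2 of the 10 genes with a CArG box in the 250 bases before the RefSeq start, because this motif of serum response factor is known from many cytoskeletal genes. Sequences are from RefSeq on GRCm38.p6, read 5′ to 3′ on the strand of the gene, and capitals mark the CArG box. They are Actn1, chr12:80260372-80260613 (minus strand), Vcl, chr14:20929148-20929397 (plus strand), and Ldb3, chr14:34588683-34588931 (minus strand).
Actn1: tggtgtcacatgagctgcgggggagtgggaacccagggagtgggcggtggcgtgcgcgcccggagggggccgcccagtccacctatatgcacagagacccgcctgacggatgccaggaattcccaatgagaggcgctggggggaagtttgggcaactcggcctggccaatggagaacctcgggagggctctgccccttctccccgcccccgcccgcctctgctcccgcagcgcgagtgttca
Vcl: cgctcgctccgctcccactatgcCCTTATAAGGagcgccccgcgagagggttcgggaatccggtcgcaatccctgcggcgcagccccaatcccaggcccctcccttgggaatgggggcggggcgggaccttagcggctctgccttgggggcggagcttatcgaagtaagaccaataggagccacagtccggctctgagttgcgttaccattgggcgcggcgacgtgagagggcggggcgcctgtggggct
Ldb3: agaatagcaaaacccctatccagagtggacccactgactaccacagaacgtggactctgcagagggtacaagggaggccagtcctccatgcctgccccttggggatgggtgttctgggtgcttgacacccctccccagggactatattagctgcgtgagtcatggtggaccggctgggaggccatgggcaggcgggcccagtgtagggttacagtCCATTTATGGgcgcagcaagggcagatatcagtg
The box lay 227 to 218 bases before the start of Vcl and 35 to 26 bases before that of Ldb3. It was found, on either strand, in 482 of 32851 promoter windows of this length (1.47%) and in 0 of the 19 relatives of the 10 genes that matched. A gene was counted when any of its windows held the motif, whereas the percentages of all are of single windows. Such counts and percentages are not directly comparable. Searched in the same way, the short Smad motif CAGAC was present in 1 of the 10 (Tln1), in 12 of the 19 relatives and in 42.2% of all windows. The AP-1 motif TGANTCA was present in 1 of the 10 (Ldb3), in 2 of the 19 relatives and in 6.75% of all. The window of Actn1, the gene that fell, held none of these letters, which says nothing of binding elsewhere. Vcl and Ldb3 did not pass the test.

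Of the filament genes, none passed the test, although the KO libraries of Vim and Des lay outside the WT range in opposite directions. Vim (chr2:13573927-13582826) had normalised counts of 101668, 110935, 122485 and 107826 in WT and 93106 and 83778 in KO. Both KO values were below the lowest WT value, with a log2 fold change of -0.32 ± 0.16 SE (95% interval -0.63 to -0.02, adjusted p = 0.188, and 0.0866 to 0.761 over the alternatives). Vimentin is made by SMCs, endothelial cells and fibroblasts alike. Des (chr1:75360329-75368579) had 2716, 2892, 3105 and 2049 in WT and 3130.0 and 3964 in KO. KO-1 exceeded the highest WT library only narrowly and KO-2 by more, with a log2 fold change of 0.40 ± 0.21 SE (-0.02 to 0.81, adjusted p = 0.251, 0.109 to 0.706 over the alternatives). Des is also a gene of cardiac muscle, whose 12 markers summed to 8.53 times the WT mean in KO-1 and 1.14 times in KO-2. Ryr2 made up much of that sum in WT (2291 to 2667) and was lower in KO-2 (1368). For 5 of the 12 markers both KO libraries exceeded all WT libraries. The part of cardiac muscle in the values of Des was not tested. As a ratio per length, chosen after the values were seen and not tested, Des stood to Vim as 0.0425 in KO-1 and 0.0598 in KO-2, above all WT libraries (0.0240 to 0.0338) and on average 1.67 times the WT mean. With 4 libraries against 2, the smallest p that a two-sided exact rank-sum test can give is 0.133. Synm (chr7:67730160-67759742), which anchors filaments to the dystrophin complex and to vinculin, had 1987, 1649, 2253 and 2049 in WT and 1762 and 1890.5 in KO. Both KO libraries lay within the WT range (-0.12 ± 0.18 SE, -0.48 to 0.24, adjusted p = 0.775).

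The plaque genes were abundant and did not separate the groups. Flna (chrX:74223461-74249820) had normalised counts of 258407, 245491, 223000.0 and 218638 in WT and 280252 and 203562 in KO. The KO libraries were the highest and the lowest of all 6, so the mean difference was near 0 (log2 fold change 0.03 ± 0.18 SE, 95% interval -0.33 to 0.39, adjusted p = 0.944) and its sign turned with the library left out (0.26 without KO-2, -0.21 without KO-1). Vinculin, which binds talin and actin under tension, is encoded by Vcl (chr14:20929398-21033676). It had 18532, 19365, 21315 and 20431 in WT and 19605 and 18634 in KO, with both KO libraries inside the WT range (-0.06 ± 0.15 SE, -0.35 to 0.23, adjusted p = 0.876). Tln1 (chr4:43531519-43562691) encodes talin-1, the protein that binds integrin tails directly. Its counts in WT were 22090.2, 22071, 22168 and 22286, a coefficient of variation of 0.441% and the smallest of the 10 genes. In KO they were 23676 and 18879, one above and one below all WT libraries (-0.06 ± 0.16 SE, -0.37 to 0.25, adjusted p = 0.885). Exons of Vcl overlap those of Ap3m1 over 2090 bases and exons of Tln1 those of Creb3 over 360 bases, on the opposite strand.

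Lmod1, Synpo2 and Ldb3 were each higher in KO on average, without passing the test. Leiomodin-1 is found mainly in smooth muscle, and Lmod1 (chr1:135324807-135368065) had normalised counts of 44431, 36929.9, 45891 and 33929 in WT and 36799 and 54298 in KO. KO-1 lay within the WT range and KO-2 above it (log2 fold change 0.18 ± 0.21 SE, 95% interval -0.24 to 0.59, adjusted p = 0.700), and the sign turned without KO-2 (-0.12). Synpo2 (chr3:123076519-123236149) encodes synaptopodin-2 or myopodin, a partner of alpha-actinin and filamin at dense bodies. It had 24575, 25837, 29482 and 29339.6 in WT and 34982 and 29942 in KO, where KO-2 exceeded the highest WT library by little (0.25 ± 0.17 SE, -0.07 to 0.57, adjusted p = 0.395). Ldb3 (chr14:34526603-34588682) encodes a PDZ and LIM domain protein that binds alpha-actinin at the Z-line of striated muscle. It had 3971, 4229, 4223 and 4698 in WT and 6310.0 and 4654 in KO, with KO-1 above all WT libraries and KO-2 inside their range (0.36 ± 0.18 SE, 0.00 to 0.72, adjusted p = 0.226). The call for Ldb3 rested on which KO library was used, with a log2 fold change of 0.57 (adjusted p = 0.0176) without KO-2 and 0.12 without KO-1. The cardiac muscle markers summed to 34032 normalised counts in KO-1, against 3157 to 4586 in WT and 4531 in KO-2. The KO-2 sum held a low Ryr2 (1368, against 2291 to 2667 in WT), and 5 of the 12 markers exceeded all WT libraries in both KO libraries. Ldb3 is also expressed in cardiac muscle, and the part of these cells in its value was not tested.

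Of 27 listed relatives of the 10 genes, in the same or closely related families, 26 were tested, and 6 passed, 4 lower and 2 higher (23.1%, beside 10.4% of all genes). Of the 26, 2 passed with more than 2-fold change, beside 5.64% of all genes. The relatives were listed with earlier results of these data known, so these shares are a description only. Both of these were PDLIM genes that fell, Pdlim1 and Pdlim7, whose PDZ and LIM domain proteins, like that of Ldb3, bind alpha-actinin on actin bundles. Pdlim1 had normalised counts of 5488, 5118, 4983 and 6223 in WT and 2289 and 2321 in KO (log2 fold change -1.24 ± 0.17 SE, adjusted p = 1.66e-11). Pdlim7 had 8981, 8949, 8004 and 7554 in WT and 4116 and 4059.9 in KO (-1.03 ± 0.16 SE, adjusted p = 7.96e-09). Neither gene's groups overlapped, and both passed in all 15 alternatives. The other members of that group, Pdlim2, Pdlim3, Pdlim4 and Pdlim5, had log2 fold changes from -0.35 to 0.08 and did not pass.

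Among the alpha-actinins, Actn4, the other non-muscle form, also fell, from 23251 to 35449 in WT to 16462 and 18842 in KO (-0.61 ± 0.21 SE, adjusted p = 0.0407). That call was weak, since it passed in only 5 of 15 alternatives and was lost without WT-1 (0.0525), WT-2 (0.0894), KO-1 (0.192) or KO-2 (0.0935). Per length, the 4 alpha-actinin genes together summed to 1609 to 2191 TPM in WT and to 1338 and 1016 in KO. TPM is scaled to each library's total, of which mitochondrial genes took 11.7% in KO-2, so sums in different libraries depend on that scaling. In KO-1 and KO-2, Actn1 was at 848 and 629 TPM but at 28389.8 and 28039.7 normalised counts. Within a library, Actn1 made up 62.2% to 69.5% of the alpha-actinin sum in WT and 63.4% and 61.8% in KO, the first within the WT range and the second just below it. Actn2, the form of cardiac and skeletal Z-lines, rested on KO-1, with 993 normalised counts there, 136 in KO-2 and 107 to 258 in WT (1.45 ± 0.87 SE, adjusted p = 0.329). In KO-1 its level stood at 3.23% of the family, beside the higher cardiac markers of that library. Actn3 had at most 43 normalised counts.

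Flnc, the muscle filamin, rose from 9027 to 10347 in WT to 14566 and 13548 in KO (0.52 ± 0.15 SE, adjusted p = 0.00743). Flnc is likewise expressed in cardiac muscle, whose markers summed to 8.53 times the WT mean in KO-1 and 1.14 times in KO-2. For 5 of these 12 markers both KO libraries exceeded all WT libraries. The part of cardiac muscle in the rise of Flnc was not tested. Per length, Actn1 stood to Flnc as 8.53 ± 0.686 in WT and as 3.31 and 3.52 in KO, a ratio chosen after the values were seen and not tested. Tmod1, which caps the pointed end of actin filaments and is related to leiomodins, rose from 1008 to 1102 in WT to 1749 and 1476 in KO (0.59 ± 0.17 SE, adjusted p = 0.00868), while Tmod2 (0.50) and Tmod3 (0.53, adjusted p = 0.126) did not pass. Flnc and Tmod1 missed the threshold in the edgeR fit without a filter (0.0522 and 0.0521). Exons of Tmod1 overlap those of Tstd2 over 1287 bases on the opposite strand. Lmod2, the leiomodin of heart and skeletal muscle, was at 0 to 7.31 normalised counts in WT, 387 in KO-1 and 27 in KO-2 (adjusted p = 0.0623). Synpo2l, the striated muscle relative of Synpo2, fell from 432 to 766 in WT to 344 and 225 in KO (-0.97 ± 0.29 SE, adjusted p = 0.0121), a call lost with edgeR (0.0800) and without KO-2 (0.263). Nes, Tln2, Ctnna1, Ctnna3, Ctnnal1, Synpo and Lmod3 had log2 fold changes between -0.09 and 0.33 and did not pass, Prph, Gfap and Tmod4 had at most 27.3 normalised counts, and Ctnna2, with at most 3.13, was left untested.

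**Figure D3:**
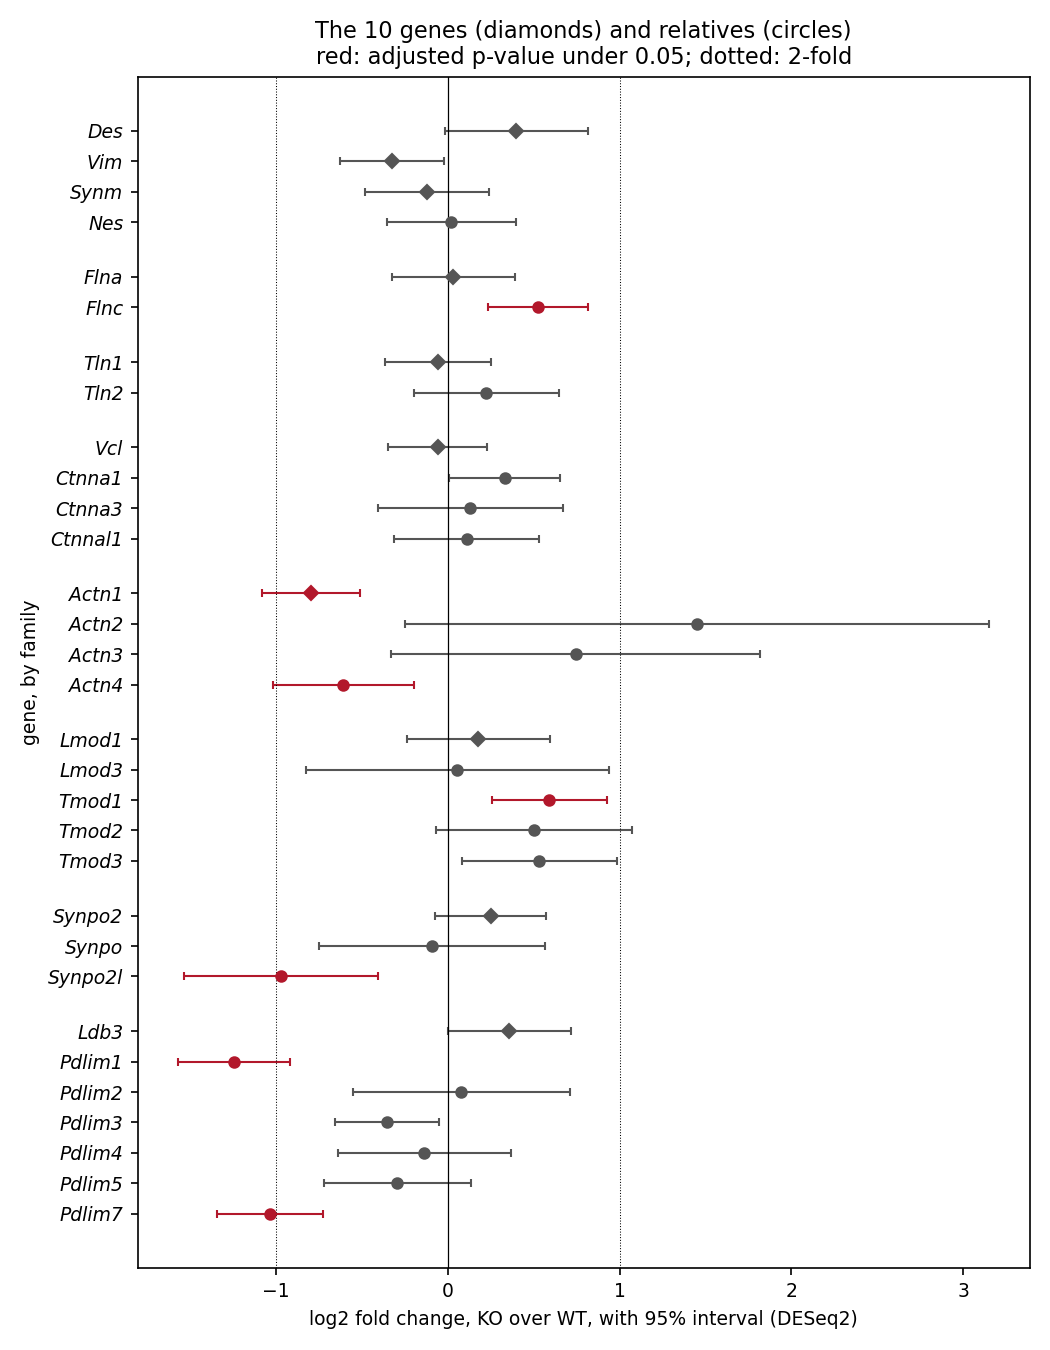
Log2 fold change of KO over WT with its 95% interval (DESeq2) for the 10 genes (diamonds) and 21 of the relatives in their families (circles, the others not drawn), red where the adjusted p-value is under 0.05. Actn1 at -0.80 is the only diamond in red, Pdlim1 and Pdlim7 lie beyond the 2-fold line on the left, and Flnc and Tmod1 are red on the right.

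Of 113 further genes of the filaments, plaques, dense bodies and dystrophin complex, relatives included, 27 passed, 17 lower and 10 higher, with a median of -0.01. That is 23.9%, beside 10.4% of all genes. The lists were chosen with earlier results of these data known, so their shares, here and below, are a description only. Of the 113, 8 passed with more than 2-fold change, beside 5.64% of all genes. Of 15 tested genes of intermediate filaments and linkers, 5 passed (33.3%), 3 lower and 2 higher (median 0.00). Those that fell were Lmna, which encodes the lamins A and C of the nuclear envelope, Plec, which encodes the crosslinker plectin, and Dsp, which encodes desmoplakin. Lmna went from 10864 to 13763 normalised counts in WT to 7170.5 and 6512 in KO (log2 fold change -0.85 ± 0.17 SE, adjusted p = 3.9e-05), Plec changed by -0.70 ± 0.17 (0.00109) and Dsp by -0.75 ± 0.18 (0.000877). Those that rose were Lmnb1 (0.80 ± 0.26, adjusted p = 0.0236, named after its values were seen), which missed the threshold without WT-2 (0.0653), KO-1 (0.12) or KO-2 (0.0537), and Krt19, a keratin of epithelial and mesothelial cells. Krt19 was at 7.69 to 21 in WT and 49.3 and 184 in KO (adjusted p = 3.8e-05, and 0.191 without KO-2), beside mesothelial markers, Krt19 among them, at 2.66 and 8.06 times the WT mean in KO-1 and KO-2.

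The adhesion plaque genes moved in both directions. Of 46 tested, 9 passed (19.6%, beside 10.4% of all genes), 4 lower and 5 higher (median -0.03). Kank1, which binds talin at the rim of adhesions, fell from 11599.9 to 14067 in WT to 6714 and 7175 in KO (-0.90 ± 0.16 SE, adjusted p = 5.85e-07), and Enah, an actin polymerase that is recruited by zyxin and vinculin, fell from 12854 to 15307 to 8289 and 8824 (-0.74 ± 0.16, 0.000101). The tyrosine kinase Src fell by 1.35 on the log2 scale (adjusted p = 0.00146), but WT-1 with 672 stood with the KO libraries (656 and 482) and apart from the other WT libraries (1688 to 1723), and the call was lost with edgeR (0.0820) and without KO-2 (0.116). Higher in KO were Lasp1, a LIM and SH3 protein of actin-rich adhesions, at 1469 to 1643 in WT and 2886 and 2638 in KO (0.82 ± 0.16, adjusted p = 1.05e-05), and Parvb, a partner of integrin-linked kinase, at 184 to 293 in WT and 426 and 631 in KO (1.18 ± 0.27, adjusted p = 0.000563, and 0.0823 without KO-2).

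Of 23 tested genes of dense bodies and Z-lines 6 passed (26.1%, beside 10.4% of all genes, and 3 with edgeR), 5 lower and 1 higher (median -0.09). Of these, Pdlim1, Pdlim7, Actn4, Synpo2l and Flnc are given above. The remaining gene, Tcap, encodes telethonin, a titin-binding protein of the Z-line. It fell from 14105, 8573, 11531 and 8205 in WT to 1349 and 4319 in KO (-1.90 ± 0.36 SE, adjusted p = 7.05e-06), with KO-1, where cardiac markers were highest, the lowest of all libraries. Tcap missed the threshold in edgeR with a filter (0.0532). The dystrophin complex ties the cytoskeleton to laminin outside the cell, and with caveolae it occupies the membrane between plaques. Of the 21 tested genes of both 6 passed (28.6%, beside 10.4% of all genes, and 3 with edgeR), 5 lower and 1 higher (median -0.22). Cav3, a muscle caveolin, fell from 628 to 815 in WT to 278 and 237 in KO (-1.44 ± 0.22 SE, adjusted p = 3.21e-09) and passed in all 15 alternatives. Sspn, which encodes sarcospan, fell by 0.53 (adjusted p = 0.0121, and 0.0991 without KO-2). Utrn, the gene of the dystrophin relative utrophin, fell by 0.52 (adjusted p = 0.0278), a call lost without WT-3 (0.0687), WT-4 (0.0715), KO-1 (0.0902) or KO-2 (0.0878). Cavin2, a caveolar coat gene and the single one that rose (0.57, adjusted p = 0.0302, named after its values were seen), missed the threshold without WT-1 (0.0868), WT-2 (0.0947) or KO-2 (0.181).

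**Figure D4:**
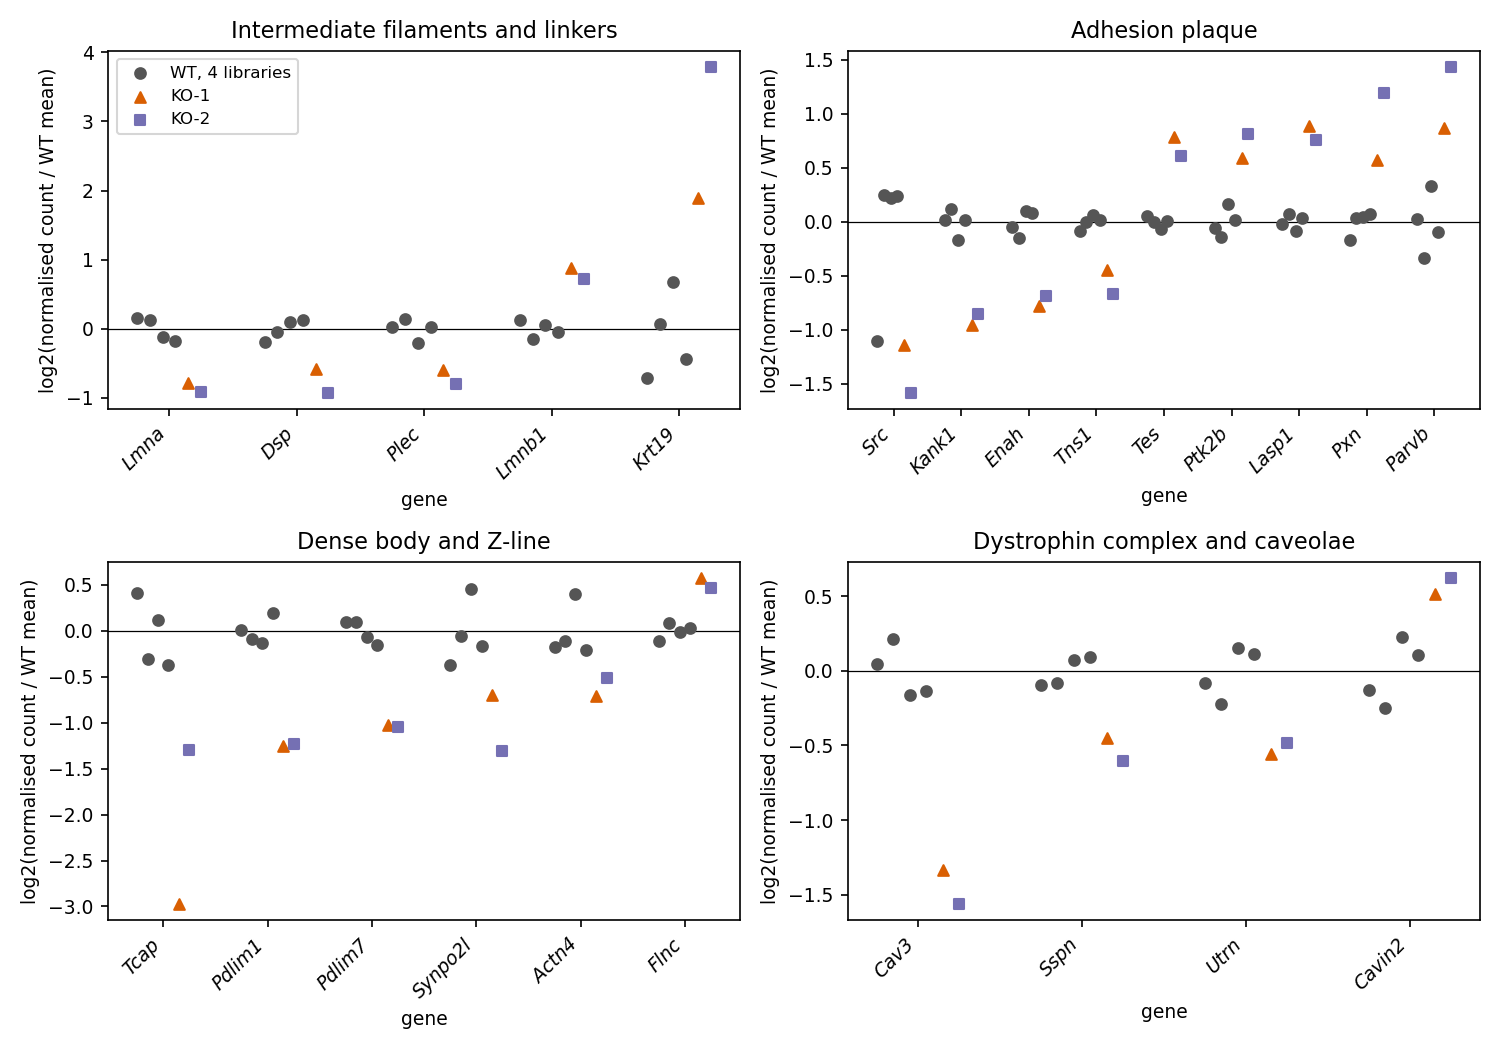
Genes of the 4 lists with an adjusted p-value under 0.05 that are reported here, as log2 of the normalised count (plus 0.5) over that of the WT mean, in 4 WT libraries (circles), KO-1 (triangle) and KO-2 (square), with a vertical scale of its own in each panel. Both KO libraries lie on the same side of the WT libraries for each gene drawn, narrowly so for Src, where WT-1 (672) is close to KO-1 (656), and KO-1 and KO-2 lie far apart for Tcap and Krt19.

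By pattern over the 6 libraries, the genes most like Actn1 were Mef2d, Maco1 and Enah, with root mean squared distances of 0.0580, 0.0589 and 0.0699 on the log2 scale, among 11446 genes with at least 100 normalised counts on average. Mef2d had 4613, 4920.3, 5058 and 5021 normalised counts in WT and 2836 and 2991 in KO (-0.75, adjusted p = 1.9e-05). Enah is one of the plaque genes given above. Because the distance covers the KO libraries, genes close to Actn1 are lower in KO by construction.

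Markers of other cells moved beside these results, some in both KO libraries and some mainly in one. Macrophage markers passed for 9 of 10 genes (4 with edgeR) and were higher in both KO libraries, at 1.53 and 1.75 times the WT mean in KO-1 and KO-2. Endothelial markers (4 of 10, 3 with edgeR, 1.63 and 1.60 times) and fibroblast markers (3 of 10, 2 with edgeR, 1.38 and 1.24 times) were also higher as sums. Not every gene rose. Both KO libraries lay below all WT libraries for the endothelial genes Erg (log2 fold change -0.57) and Egfl7 (-0.48). The fibroblast gene Clec3b was lower on average (-0.48), and these genes did not pass the test. Cardiac markers passed for 8 of 12 genes (6 with edgeR), at 8.53 and 1.14 times the WT mean, with Nppa at 0 in 3 WT libraries. Ryr2 made up much of that sum in WT (2291 to 2667) and was lower in KO-2 (1368). Both KO libraries exceeded all WT libraries for 5 of the 12, among them Tnnt2 (4445 and 1975, against 376 to 849). Skeletal muscle markers were at 2.97 and 0.977 times (with DESeq2 0 of 7 tested passed, 1 at an unadjusted p-value of 0.05 and 0 with edgeR, with Myh1 and Myh2 at 0 in all libraries). Their sum of 687 normalised counts in KO-1 was mostly Ckm (609, against 104 to 141 in WT). Acta1 (9.11) and Tnnt3 (44.0) in KO-1 did not exceed their highest WT values (11.0 and 73.6). Adipocyte markers (5 of 10, 2 with edgeR, 1.43 and 11.4 times) and mesothelial markers (8 of 8, 4 with edgeR) were highest in KO-2. So were red blood cell markers (4 of 4 tested, 4 with edgeR, 4.04 and 22.5 times). Schwann cell markers were lower (1 of 8, 0 with edgeR, 0.636 and 0.766 times). The part of such cells in the values of Actn1 and of the other genes was not tested.

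**Figure D5:**
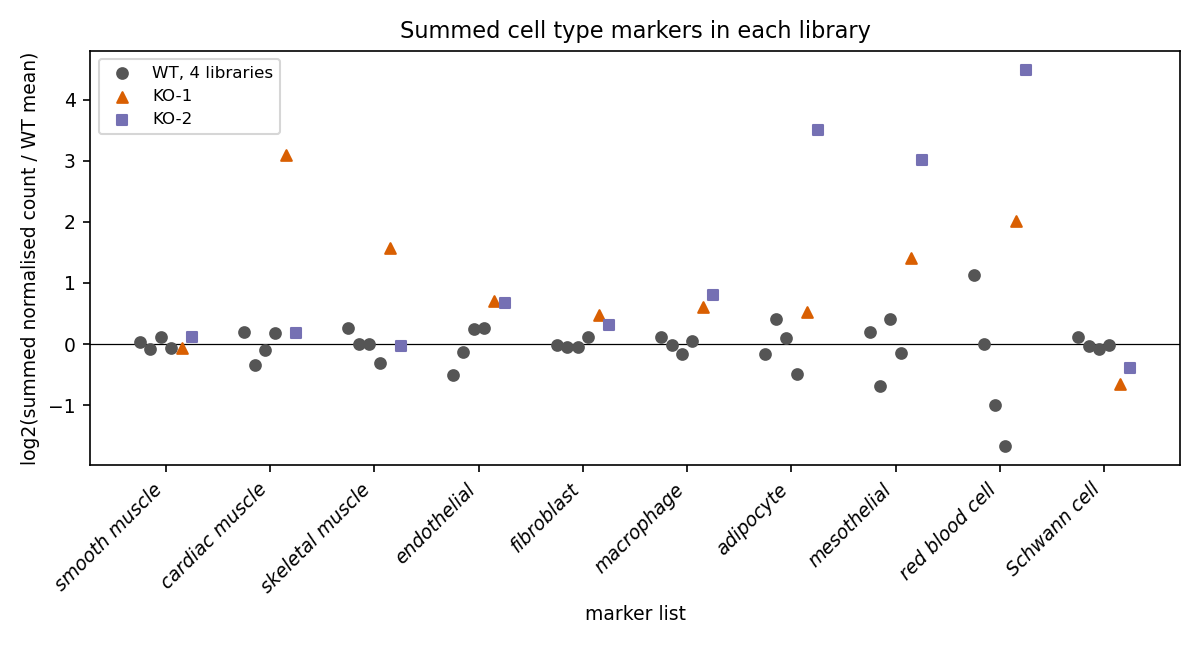
Summed normalised counts of 10 cell type marker lists in each library, as log2 of the ratio to the WT mean, with 4 WT libraries as circles, KO-1 as a triangle and KO-2 as a square. The sum of smooth muscle markers stays near 0 in all libraries, although single markers moved in both directions. Cardiac markers are high in KO-1 (8.53 times), and adipocyte (11.4 times) and red blood cell markers (22.5 times) are high in KO-2.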

How the data were processed

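RNA-seq libraries of thoracic aorta were compared, 4 WT and 2 KO. The authors aligned the reads with HISAT2 (genome GRCm38) and quantified GENCODE M15 genes with StringTie. They deposited estimated counts, already whole numbers and unscaled; how they were rounded, and whether counting used strand, is not given in the sources used here. Columns carry codes, and the code with 4 numbers was taken as WT and that with 2 as KO. No label ties libraries to separate batches, and p-values measure the spread between these libraries.

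DESeq2 1.42.0 in R 4.3.3 was run over all genes (Wald test, group only, default filtering), with Benjamini-Hochberg adjusted p-values over the 17070 genes tested. Fold changes are unshrunken, and 95% intervals are from the standard error. edgeR 4.0.16 (quasi-likelihood test), other scalings, filters, a replicate block and the omission of each library made up 15 alternatives. Scripts were tested on simulated data. GENCODE M21 (GRCm38) gave positions and exon lengths for 52489 of 52636 genes. In the plots of list genes 0.5 was added to counts.

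The 10 genes and the gene lists were chosen with earlier results of these data known. Named were the 10 genes, Tgfbr1, Tgfbr2 and the relatives, and from each other list the genes past the adjusted p-value and 2-fold with up to 3 further genes of smallest adjusted p-value. Likeness to Actn1 was the root mean squared distance of log2(normalised count + 0.5) less its WT mean. Protein sequences were not used here. Some genes that the rule selects are counted but not reported here.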

Additional observations from a re-analysis of the deposited data

How the results depend on the processing

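Over the 10 genes and 15 alternatives, 140 of 150 results kept their direction and their side of the threshold. The replicate numbers did not pair the libraries (correlation of deviations -0.0867 for number 1 and 0.0140 for number 2), and with the replicate block 628 genes passed in place of 1775, 561 in place of 962 with 2-fold, 0 of the 10 genes, and 11 of 113 list genes in place of 27. With edgeR, 996 genes (633 with 2-fold) passed after its filter and 931 without a filter, where 17 list genes passed. Leaving out single libraries gave 1113 to 2439 genes (636 to 1284 with 2-fold), 1 to 2 of the 10 genes (Ldb3 joined Actn1 without KO-2), 22 to 33 list genes, and 4 to 7 of the 10 genes outside the WT range (beside 37.9% to 65.1% of all genes), a count of 2 when total counts set the scale (beside 32.7%). Without a KO library, the lone KO library is assumed to vary like the others. Signs turned only for small differences. With the block they were 0.012 for Synm, -0.077 for Flna, 0.013 for Vcl and 0.096 for Tgfbr2. With total counts less mitochondrial genes, which moved the median of all genes to 0.11, they were 0.041 for Vcl, 0.041 for Tln1 and 0.0085 for Tgfbr2, and relative to that median -0.07, -0.07 and -0.10. Over left-out libraries Flna ran from -0.21 to 0.26, Tln1 from -0.23 to 0.11 and Lmod1 from -0.12 to 0.43. The cause was not tested. With 2 KO libraries, differences smaller than the intervals, which reach 0.81 on the log2 scale, could not be resolved for 9 of the 10 genes.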
